A study of Mus musculus with 2 samples.

Results

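A set of 44 genes that act in mitosis was described in CH12.LX. This established mouse line derives from a B-cell lymphoma. It holds the kinases that drive cells into mitosis, the spindle checkpoint, the kinetochore, the machinery of anaphase and the condensin I complex. The genes were chosen by symbol: all 44 symbols were matched through the GENCODE mouse annotation, among 43346 annotated genes in the files. RNA longer than 200 nt was sequenced in 2 libraries, labelled as biological replicates 1 and 2 of separate biosamples, which form a single group. The source strain is B10.H-2aH-4bp/Wts, the labels give the sex as female and the age as unknown, and no treatment, mutation or second cell type is named, so levels and the spread between replicates are what can be described.

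Entry into mitosis is driven by the kinase Cdk1 bound to a B-type cyclin, and this pair is held back by Wee1 and released by Cdc25 phosphatases. The chromosomes are then compacted by condensin and captured by microtubules through kinetochores, which are built on centromeres that carry the histone variant Cenpa. Unattached kinetochores keep the spindle checkpoint active, and once it is silenced Cdc20 activates the anaphase-promoting complex, which marks securin and cyclin B for destruction. Many of these genes are transcribed late in the cell cycle, and fast-growing lymphoma lines are known to express them.

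All 44 genes were expressed, at levels that spanned 132-fold. Levels are in TPM, relative transcript abundance per length that the authors scaled to a common sum per library. Each of the 44 reached 1 TPM in both libraries, against 45.9% of all protein-coding genes, and 41 reached 10 TPM, against 30.2% of protein-coding genes. Their median was 57.0 TPM, against 19.2 TPM over the 9862 protein-coding genes expressed at 1 TPM or more, and 39 of the 44 lay above that median. Among the expressed protein-coding genes, 23 of the 44 lay at or above percentile 75. The 5 below the median were Cdc25b, Espl1, Wee1, Cenpf and Foxm1. In bulk RNA of a growing culture, a smaller share of cells in mitosis and less RNA per cell cannot be told apart.

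**Figure D1:**
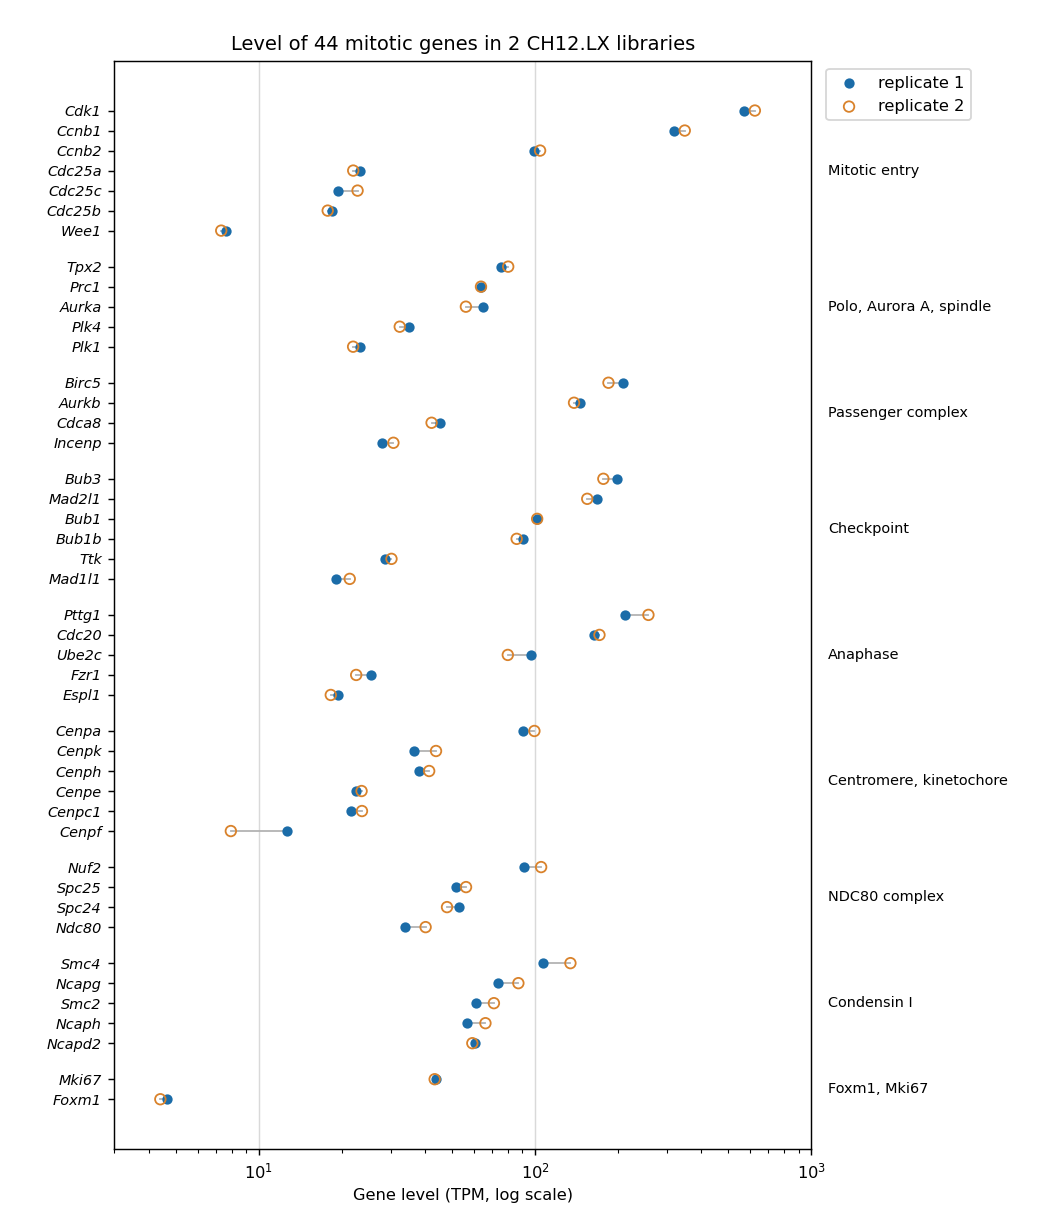
Level of each of the 44 genes in TPM on a log axis, grouped by role, with a filled point for replicate 1 and an open point for replicate 2. Cdk1 stands highest at 571 and 625 TPM and Foxm1 lowest at 4.66 and 4.40 TPM, and Cenpf has the widest gap between its points.

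The libraries held 24469094 and 23586580 expected counts, of which the 44 genes took 0.582% in replicate 1 and 0.603% in replicate 2. Single members held between 252 and 14740 counts. The order of their levels was close to the same in both libraries, with a Spearman correlation of 0.987 across the 44 genes, which share libraries and are not independent replicates. Of the 43 pairs of neighbours in that order, 28 had overlapping ranges over the libraries and 15 did not. All 8 B-cell markers reached 1 TPM in both libraries, a level that 45.9% of all protein-coding genes reached. They ranged from Pax5 at 8.43 ± 0.933 TPM to Cd74 at 2359 ± 165 TPM, with Ms4a1 at 524 ± 43.5 TPM (SD, n = 2). Such markers do not tell B-cell lines apart. Of 8 genes listed as markers of other cell types, only Pecam1, listed for endothelium, reached 1 TPM in both libraries, at 14.8 ± 0.983 TPM. The epithelial gene Epcam stood at 0.84 TPM in replicate 1 and 1.23 TPM in replicate 2, while the T-cell gene Cd3e and the erythroid gene Hbb-bs had 0 counts, which allows up to 0.123 TPM and 0.421 TPM in replicate 2 (3 counts).

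The promoters of these genes shared short motifs more often than promoters in general. Late cell-cycle promoters are known for CCAAT boxes, which bind the factor NF-Y, and for an element called CHR, with the letters TTTGAA, which is bound by the MuvB complex. RefSeq windows on GRCm38.p6 from 250 bases before to 50 bases after the start site were found for 36 of the 44 genes and searched on both strands. CCAAT was present in 28 of the 36 genes (77.8%), against 41.1% of the 27025 genes with a window and 44% of the expressed protein-coding genes. TTTGAA was present in 20 of the 36 (55.6%), against 20.2% of all genes and 14.8% of the expressed protein-coding genes. Both motifs together were found in 19 of the 36 genes (52.8%), against 7.97% and 6.43% in those groups. A related form of the element, TTTAAA, was found in 10 of the 36 genes (27.8%), against 14.9% and 11.1%. The median GC content of the windows was 59.0%, against 52.7% over all windows and 60.7% for expressed protein-coding genes.

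**Figure D2:**
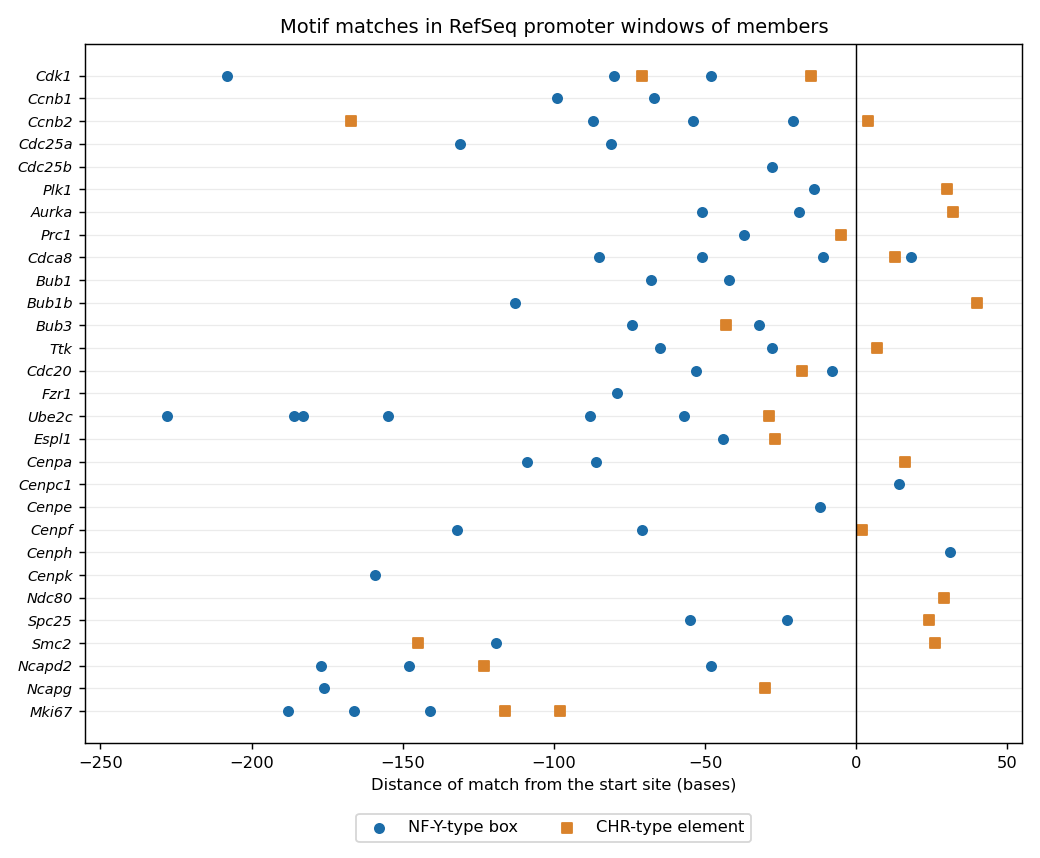
Distance of each motif match from the start site in bases, for the 29 genes with a match in the RefSeq window drawn (1 window a gene). Circles are CCAAT boxes and squares are TTTGAA elements on either strand, and most squares lie within 50 bases of the start site, with most circles upstream of it.

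The spacing can be read in the sequences. They are shown for 8 genes, chosen after values were seen. All 8 carry CCAAT and all but Ccnb1 carry TTTGAA, and no gene without a match is printed. Each runs from 100 bases before to 30 bases after the RefSeq start site, 5′ to 3′ along the gene's strand on GRCm38.p6. Capitals mark CCAAT or its reverse complement ATTGG, and TTTGAA or its reverse complement TTCAAA.
Cdk1, chr10:69352883-69353012, minus strand: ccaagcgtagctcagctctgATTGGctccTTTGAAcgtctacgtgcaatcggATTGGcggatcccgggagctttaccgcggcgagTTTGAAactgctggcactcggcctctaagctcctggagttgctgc
Ccnb1, chr13:100786457-100786586, minus strand: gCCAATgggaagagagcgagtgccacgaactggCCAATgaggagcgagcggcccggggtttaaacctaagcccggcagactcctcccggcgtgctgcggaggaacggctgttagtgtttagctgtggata
Ccnb2, chr9:70421525-70421654, minus strand: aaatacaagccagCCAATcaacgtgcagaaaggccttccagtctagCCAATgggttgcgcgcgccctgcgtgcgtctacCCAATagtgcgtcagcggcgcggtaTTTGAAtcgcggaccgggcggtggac
Cdca8, chr4:124936888-124937017, minus strand: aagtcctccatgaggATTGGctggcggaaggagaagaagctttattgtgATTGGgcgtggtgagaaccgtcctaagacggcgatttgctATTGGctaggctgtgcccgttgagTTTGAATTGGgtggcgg
Ttk, chr9:83834589-83834718, plus strand: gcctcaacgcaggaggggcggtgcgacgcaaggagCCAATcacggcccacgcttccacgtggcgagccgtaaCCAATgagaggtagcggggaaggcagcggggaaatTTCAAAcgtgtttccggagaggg
Cdc20, chr4:118437314-118437443, minus strand: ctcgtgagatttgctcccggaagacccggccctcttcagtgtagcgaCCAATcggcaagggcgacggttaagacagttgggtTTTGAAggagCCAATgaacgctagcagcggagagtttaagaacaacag
Ube2c, chr2:164769829-164769958, plus strand: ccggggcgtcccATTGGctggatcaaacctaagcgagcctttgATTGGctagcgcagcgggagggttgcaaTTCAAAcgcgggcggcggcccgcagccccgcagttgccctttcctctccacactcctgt
Espl1, chr15:102296193-102296322, plus strand: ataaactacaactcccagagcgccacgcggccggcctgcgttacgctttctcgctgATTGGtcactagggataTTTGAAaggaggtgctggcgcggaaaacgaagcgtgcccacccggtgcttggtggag

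Cdk1 carried TTTGAA at -71 and at -15 bases from the start site, with CCAAT boxes at -80 and -48. Ccnb1 had 2 CCAAT boxes, no TTTGAA, and a TTTAAA at -42. In Cdca8 the last CCAAT box overlapped the TTTGAA, so those letters were read for both. Neither motif was in the windows of Birc5, Mad1l1, Mad2l1, Ncaph, Nuf2, Plk4 and Pttg1, 7 of 36 genes (19.4%) against 47.7% of all genes. Such an absence says only that the letters were not in that window. The RefSeq start lay within 50 bases of the GENCODE start of the leading transcript in 28 of the 36 genes. In Pttg1 it lay 221 bases downstream of it, so most of that window falls inside the gene and it is not printed. In Ccnb1 it lay 84 bases downstream, and in Mad2l1 and Plk4 it lay upstream, at -169 and -68 bases from it. At the positions where the matches gathered, chosen after they were seen, a CCAAT from -100 to -1 was present in 61.1% of the 36 genes. This compares with 22.0% of all genes and 27.8% of the expressed protein-coding genes. A TTTGAA from 50 bases before to 44 bases after the start site was present in 18 of the 36 genes. It was present in 5.72% of all genes and 4.06% of the expressed protein-coding genes. Levels overlapped between genes with and without these letters: the 19 genes with both motifs had a median of 63.7 TPM and ranged between 10.3 and 598 TPM, and the 7 with neither had a median of 98.4 TPM and ranged between 20.2 and 235 TPM. The 9 genes with CCAAT only had a median of 24 TPM and ranged between 18.1 and 334 TPM.

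Levels below are given for replicate 1 and then replicate 2. Among the regulators of mitotic entry, the kinase and its cyclins stood far above the enzymes that switch them. Cdk1 (ENSMUSG00000019942.8, chr10:69335146-69352938, minus strand), the kinase of mitotic entry, stood at 571 and 625 TPM, the highest of the set. Ccnb1 (ENSMUSG00000041431.12, chr13:100778650-100786570, minus strand), its main mitotic cyclin, stood at 319.9 and 348.5 TPM. Ccnb2, the second B-type cyclin, was at 99.4 and 104 TPM. Cyclin B1 transcripts therefore outnumbered cyclin B2 transcripts by 3.28 ± 0.0861 to 1 (SD, n = 2). The phosphatase genes Cdc25a, Cdc25b and Cdc25c, which remove the inhibitory phosphates from Cdk1, were close together. Cdc25a stood at 23.3 and 22.0 TPM. Cdc25b was at 18.4 and 17.8 TPM. Cdc25c was at 19.4 and 22.8 TPM. Cdc25a exceeded Cdc25b in both libraries, by 1.26 and 1.24 to 1, while its ratio to Cdc25c was 1.20 in replicate 1 and 0.964 in replicate 2. Wee1, the kinase that places those phosphates, was the second lowest of the set at 7.63 and 7.31 TPM.

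The order of Cdk1 and Ccnb1 depended on which transcripts were counted. A transcript of Cdk1 annotated as a retained intron, Cdk1-204, is 475 nt long and held 54.8% and 56.4% of the gene's TPM. It did so on 1649 and 1789 of 7545 and 7183 expected counts, because TPM divides by length. The coding transcript Cdk1-202, 1253 nt long, held 33.7% and 28.5% of the TPM on 4148 and 3689 counts. Of the 475 bases of Cdk1-204, 412 (86.7%) also lie in Cdk1-202 and only 63 lie outside it. On protein-coding transcripts alone, Cdk1 stood at 222 and 209.6 TPM and Ccnb1 at 294 and 310.2 TPM. The ratio of Ccnb1 to Cdk1 was thus 0.559 ± 0.00176 over all transcripts, but 1.40 on protein-coding transcripts and 1.98 by expected count (not per length). A processed pseudogene of Ccnb1, Ccnb1-ps, was listed at 16.5 and 15.9 TPM, and how far it shares reads with Ccnb1 was not tested.

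Among the Polo and Aurora kinases and their spindle partners, the median was 60.5 TPM. Plk1, the Polo kinase of centrosome maturation and mitotic exit, stood at 23.3 and 22.0 TPM. Plk4, the Polo kinase that starts centriole duplication, was higher at 34.9 and 32.4 TPM. The ratio of Plk4 to Plk1 was 1.49 ± 0.0163, and 1.17 on protein-coding transcripts. The second value leaves out Plk4 transcripts that had no type in the annotation used, so whether they code is not known here. The largest of them by share, 593 nt long, held 21.2% and 7.38% of the Plk4 TPM, on 57 and 18 counts. Aurka, the Aurora kinase of centrosomes and spindle poles, stood at 64.8 and 56.2 TPM, and its activator Tpx2 at 75.4 and 79.97 TPM. Prc1, which bundles microtubules in the spindle midzone, was at 63.7 and 63.7 TPM. Aurka lay below Tpx2 in both libraries, with a ratio of 0.781 ± 0.111, and 0.380 by expected count.

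The chromosomal passenger complex, which corrects faulty attachments at centromeres, had uneven subunit levels. Aurkb, its kinase, stood at 146 and 138 TPM. This was 2.36 ± 0.149 times the level of Aurka. Birc5, which encodes survivin, was at 208 and 184.5 TPM. Cdca8, which encodes borealin, was at 45.3 and 42.2 TPM, and Incenp, the scaffold, at 28.0 and 30.7 TPM. The scaffold was thus the lowest subunit by TPM, with 6.71 ± 0.992 Birc5 transcripts and 4.86 ± 0.495 Aurkb transcripts for each Incenp transcript. By expected count, which is not per length, these ratios were 1.77 and 2.61. On that measure Cdca8 was the lowest, with 1283 and 1093 counts against 1754 and 1844 for Incenp. Cdca8 shares 232 exon bases with a gene on the opposite strand, 9930104L06Rik, which held 363 and 391 counts, and whether counting used strand is not given in the sources used here.

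The spindle checkpoint genes fell into a high and a low group. Bub3, which brings its partners to kinetochores, was highest at 198 and 177 TPM. Mad2l1, which encodes the inhibitor MAD2 of Cdc20, stood at 168 and 155 TPM. The kinase gene Bub1 was at 101 and 102 TPM, and Bub1b, which encodes BUBR1, at 90.2 and 85.8 TPM. These 4 genes stood above the remaining pair in both libraries. Ttk, the kinase MPS1 that starts the checkpoint, was at 28.6 and 30.2 TPM. Mad1l1, which anchors MAD2 at kinetochores, was at 19.1 and 21.3 TPM. Mad2l1 transcripts exceeded those of its partner Mad1l1 by 8.02 ± 1.10 to 1, and by 4.26 to 1 in expected counts. Bub3 exceeded Bub1 by 1.85 ± 0.158 to 1 and Bub1b by 2.13 ± 0.0997 to 1, and Bub1 and Bub1b differed by 1.15 ± 0.0445 to 1.

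The anaphase genes included both high and low members. Cdc20, the activator of the anaphase-promoting complex in mitosis, stood at 164 and 171 TPM. Fzr1, the activator CDH1 that takes over at mitotic exit, was at 25.4 and 22.5 TPM. Cdc20 thus exceeded Fzr1 by 7.02 ± 0.824 to 1. Ube2c, the ubiquitin-conjugating enzyme of the complex, stood at 96.5 and 79.7 TPM. Pttg1, which encodes securin, ranked 3 of 44 at 212 and 257 TPM. Espl1, the separase that securin holds inactive, was at 19.4 and 18.2 TPM, near the bottom. Securin transcripts outnumbered separase transcripts by 12.5 ± 2.25 to 1, a ratio that rests on their lengths, since their expected counts stood at 0.998 to 1.

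The 6 genes of the centromere and outer kinetochore had a median of 31.3 TPM. Cenpa, the centromeric histone H3 variant, was the highest of them at 90.6 and 99.5 TPM. Its coding transcript Cenpa-205 held 68.9% and 64.9% of the TPM, and Cenpa-202, annotated as a target of nonsense-mediated decay, held 19.6% and 23.6%. Cenph and Cenpk, 2 subunits of the constitutive centromere network, stood at 37.9 and 41.4 TPM and at 36.4 and 43.8 TPM, a ratio of 0.993 ± 0.0682. Cenpc1, which links Cenpa to the outer kinetochore, was at 21.6 and 23.6 TPM, and the kinetochore motor gene Cenpe at 22.5 and 23.6 TPM. Cenpa exceeded Cenpc1 by 4.20 ± 0.00842 to 1, by 2.84 to 1 on protein-coding transcripts and by 1.5 to 1 in expected counts. Cenpf, a large kinetochore and nuclear-envelope protein gene, was at 12.6 and 7.92 TPM.

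The NDC80 complex couples kinetochores to microtubules. Nuf2 stood at 91.5 and 105 TPM and its binding partner Ndc80 at 33.7 and 40.2 TPM. The other two subunits, Spc24 at 53.2 and 48.0 TPM and Spc25 at 51.6 and 56.3 TPM, lay between them. Within the complex, Nuf2 exceeded Ndc80 by 2.67 ± 0.0671 to 1 and by 2.55 to 1 in expected counts. Spc25 and Spc24, which form a dimer, did not differ beyond their spread, with a ratio of 1.07 ± 0.143.

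Condensin I, which compacts chromosomes, had a median of 66.1 TPM. The ATPase subunit Smc4 stood at 107 and 134 TPM and its partner Smc2 at 61.2 and 71.0 TPM. The kleisin subunit Ncaph was at 56.9 and 66.2 TPM, and the repeat subunits Ncapg and Ncapd2 were at 73.4 and 87.1 TPM and at 60.7 and 59.3 TPM. The 4 subunits other than Smc4 thus lay between 56.9 and 87.1 TPM. The distance of Smc4 from Smc2 closed on protein-coding transcripts, where the ratio of Smc4 to Smc2 was 0.985, against 1.75 and 1.89 over all transcripts in the 2 libraries, and by expected count it was 1.02.

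Foxm1 and Mki67, which are used as readouts of cycling cells, stood far apart. Foxm1, a factor that activates late cell-cycle genes, was the lowest of the set at 4.66 and 4.40 TPM, on 324 and 260 counts. Mki67, which encodes the proliferation antigen Ki-67, was at 43.8 and 43.3 TPM.

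The way each gene's level divides over its transcripts varied among the members. Of the 44 genes, 13 had 1 annotated transcript, and 28 were led by a transcript with at least 80% of the TPM in both libraries. A second transcript held 20% or more in both libraries in 8 genes: Cdk1, Cdc25b, Mad2l1, Pttg1, Cenpf, Cenpk, Smc2 and Smc4. Cdk1 was the 1 gene led by a transcript not annotated as protein-coding. In 23 genes at least 95% of the TPM lay on protein-coding transcripts in both libraries. The share was under 80% in both libraries for 5 genes. It was 38.9% and 33.5% for Cdk1, 58.6% and 49.5% for Smc4, and 59.3% and 65.8% for Ncapd2. For Cenpa it was 68.9% and 66.1%, and for Foxm1 78.5% and 67.7%. The labels describe the RNA both as total and as poly(A)+, and the part of the RNA selection in these shares was not tested.

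**Figure D3:**
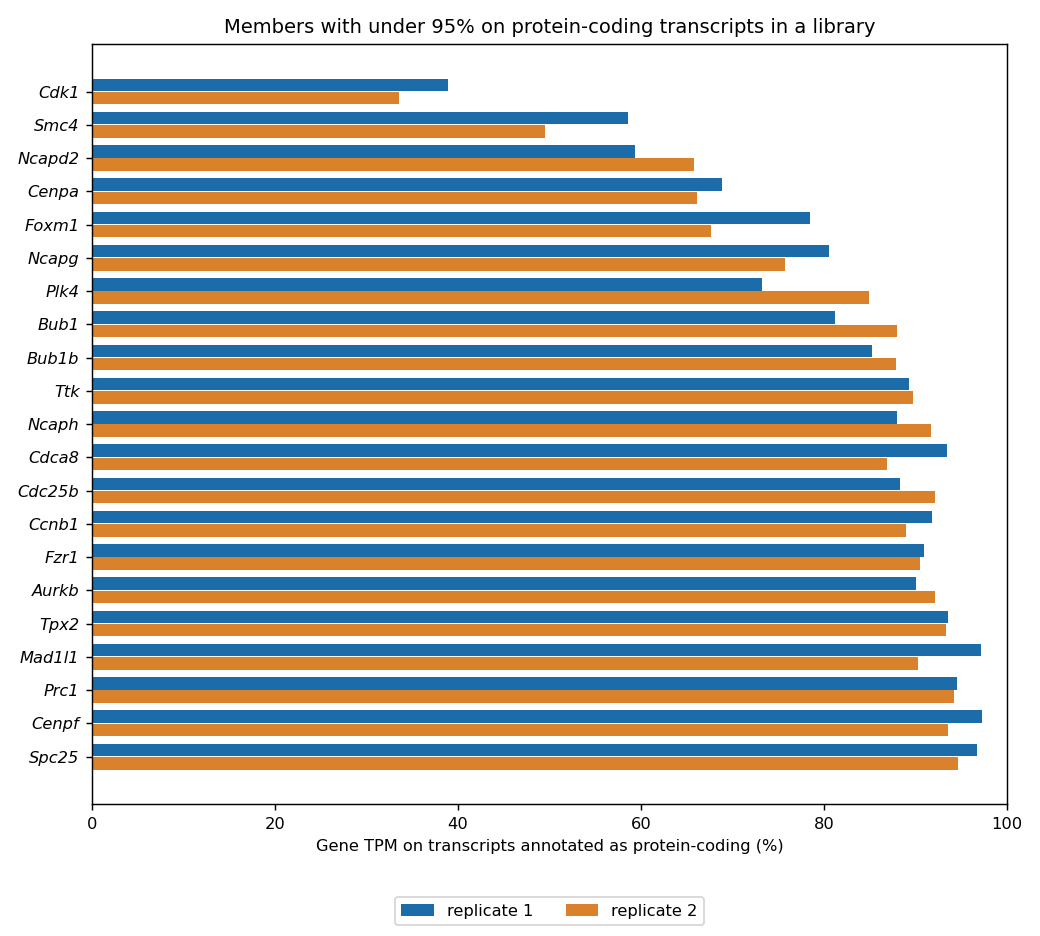
Share of each gene's TPM, in percent, on transcripts annotated as protein-coding, for the 21 of 44 genes with under 95% in at least 1 library, with a bar for each replicate. Cdk1 and Smc4 have the lowest shares and the remaining genes lie above 59% in both libraries.

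On protein-coding transcripts alone the order at the top changed, with Ccnb1 first at 302 TPM, Pttg1 at 234 TPM and Cdk1 at rank 3 with 216 TPM (means of 2 libraries). Foxm1 stayed lowest at 3.32 TPM, and the median of the 44 genes was 51.1 TPM. Levels moved by more than 1.5-fold for 3 genes, Cdk1, Smc4 and Ncapd2. Smc4 had 2 leading coding transcripts, Smc4-202 with 30.2% and 26.7% and Smc4-201 with 27.0% and 21.8% of the TPM. Its transcript Smc4-207, annotated as a target of nonsense-mediated decay and 4057 nt long, held 15.2% and 19.1% on 1304 and 1971 counts. The posterior SD was 301 and 539 counts for Smc4-207 and 311 and 492 counts for Smc4-202, so the division of reads between them, and with it the coding level of Smc4, is uncertain.

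Cdc25b used 2 coding forms that differ in exons. Cdc25b-202 held 60.4% and 57.4% of the gene's TPM, on 646 and 569 counts, and Cdc25b-201 held 27.9% and 34.8%, on 308 and 355 counts. The posterior SD was 49.3 and 49.85 counts for Cdc25b-202 and 49.18 and 49.93 counts for Cdc25b-201, so their exact shares are uncertain. The order of the 2 forms was the same in both libraries. Their exons are shown because they are what separates the forms: the first is an exon of Cdc25b-201 that Cdc25b-202 skips, 123 bases long, and the second is a stretch of 45 bases in Cdc25b-202 that Cdc25b-201 lacks, both coding and read from GRCm38 on the plus strand.
Cdc25b-201, chr2:131191813-131191935: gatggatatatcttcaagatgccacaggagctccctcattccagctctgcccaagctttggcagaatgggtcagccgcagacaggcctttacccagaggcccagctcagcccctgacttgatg
Cdc25b-202, chr2:131191722-131191766: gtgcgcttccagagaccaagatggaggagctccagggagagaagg
Both lengths are multiples of 3, and the coding parts of the forms are 1728 and 1650 nt long.

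Of the other genes with a strong second transcript, Mad2l1 and Cenpk kept the same leading one in both libraries. Mad2l1-202 led with 77.9% and 73.5%, ahead of Mad2l1-201 with 20.3% and 24.4%. Cenpk-201 led with 63.4% and 67.6% over Cenpk-202 with 36.6% and 32.4%. The leading transcript differed between libraries in 4 genes, Smc2, Pttg1, Prc1 and Cenpf, whose values are given with the replicates. In Smc2 the 2 forms held 49.9% and 48.0% for Smc2-201 and 49.0% and 51.7% for Smc2-202, with the same coding length of 3573 nt. Pttg1-203 held 44.9% and 57.0% and Pttg1-202 held 45.8% and 35.1%, and both code for 597 nt. In Prc1, Prc1-208 led in replicate 1 with 29.8%, against 19.4% in replicate 2, and Prc1-206 held 25.8% and 30.6%. The posterior SD of single Smc2 transcripts was 207 and 205 counts, so the division of reads between such similar forms is uncertain.

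By TPM, the median difference between the replicates was about as large for these genes as over all tested genes, which include genes of lower depth. On log2(TPM + 0.5), 1 of the 44 genes differed by more than 1.5-fold, against 2.69% of 11661 genes that averaged at least 20 expected counts. None of the 44 was past it as higher in replicate 2, against 0.858% of those genes, and 1 as lower, against 1.84%. Among genes that averaged at least 100 expected counts, which is closer to the depth of the members, the share past 1.5-fold was 1.29% of 9763. The median absolute difference of the members was 0.13 on the log2 scale, against 0.14 over all 11661 genes. Members held at least 252 counts, and no median at like depth was computed. With 1 library on each side there is no p-value, and the fold is a rule of size. In replicate 2, 24 genes were higher and 20 lower than in replicate 1.

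**Figure D4:**
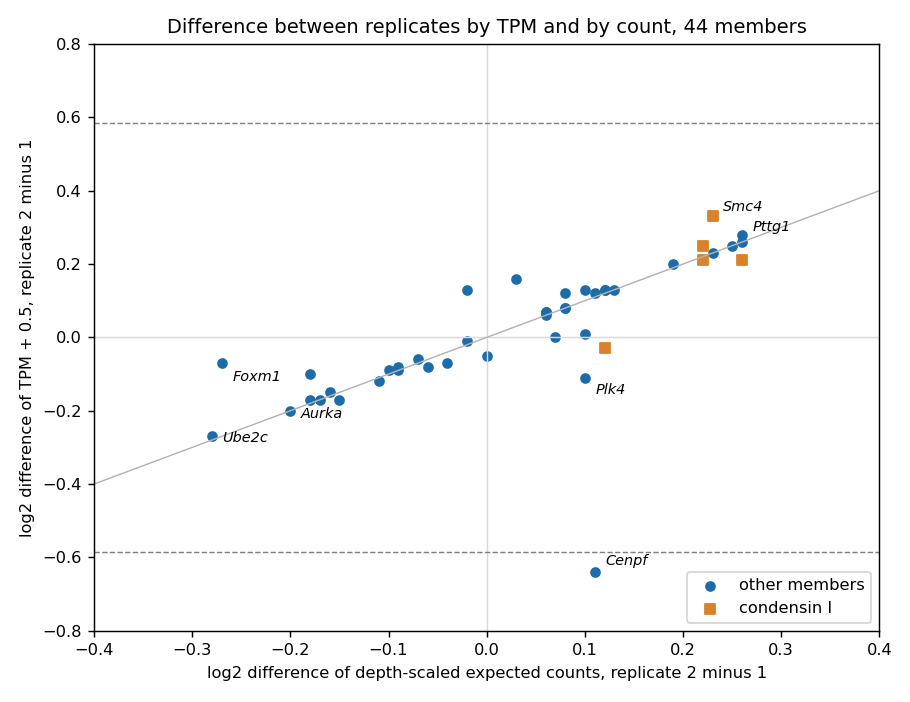
Difference between replicate 2 and replicate 1 for each of the 44 genes on the log2 scale, by depth-scaled expected count on the x axis and by TPM on the y axis, with dashed lines at 1.5-fold and a solid line where both are equal. Cenpf lies past the lower dashed line by TPM at -0.64, but at 0.11 by count, and the condensin I genes (squares) lie right of 0.

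The gene past 1.5-fold was Cenpf, at 7.92 TPM in replicate 2 and 12.6 TPM in replicate 1, a log2 difference of -0.64. Its counts went the other way, with 1103 in replicate 2 and 1057 in replicate 1, a log2 difference of 0.11 after scaling for depth. A transcript of only 358 nt, Cenpf-202, held 31.2% of the TPM in replicate 2 and 61.8% in replicate 1, on 7 and 22 counts. The full-length Cenpf-204, 11130 nt, held 1080 counts in replicate 2 and 1022 in replicate 1. On Cenpf-204 alone the level was 4.94 TPM in replicate 2 and 4.48 TPM in replicate 1. By expected count, no member passed 1.5-fold.

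More genes differed when only counting error was allowed for. The ratio of counts, replicate 2 over replicate 1 after scaling to the totals, had an exact 95% interval (Clopper-Pearson, counting error only) that left out 1 in 29 of the 44 genes. This compares with 39.7% of all tested genes. Of the 29, 18 were higher in replicate 2, against 19.1% of all tested genes, and 11 were lower, against 20.6%. Such an interval narrows with depth, and members held at least 252 counts, while tested genes needed a mean of only 20. The shares therefore set genes of unlike depth side by side, and no share at like depth was computed. Copies of 1 molecule cannot be told from separate molecules in these counts, so the intervals cover counting error and not the spread between cultures.

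All 5 condensin I genes were among the 18 of 44 members that were higher in replicate 2 by count, against 19.1% of all tested genes. Each held between 2658 and 7459 counts in a library, a depth at which such intervals are narrow. They were singled out after values were seen. Smc2 had a ratio of 1.16 (1.12 to 1.20), Smc4 of 1.17 (1.13 to 1.21) and Ncapg of 1.17 (1.12 to 1.21). Ncaph had a ratio of 1.19 (1.13 to 1.26) and Ncapd2 of 1.08 (1.03 to 1.14). By TPM, Ncapd2 stood at -0.03 on the log2 scale, so the direction for that gene depends on the measure. The largest positive differences by TPM were 0.33 for Smc4, 0.28 for Pttg1 and 0.26 for Cenpk. After Cenpf, the largest negative ones were -0.27 for Ube2c and -0.20 for Aurka. On protein-coding transcripts Smc4 differed by 0.08.

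Other genes of the same pathways were expressed alongside. Lists outside the 44, chosen with earlier results of these data known, held 82 mitotic genes that are not germline or other paralogs. All 82 reached 1 TPM in both libraries, against 45.9% of all protein-coding genes, with a median of 33.2 TPM. None was past 1.5-fold between replicates, against 2.69% of tested genes. The core of the anaphase-promoting complex had 14 of 14 genes expressed at a median of 54.6 TPM, from Anapc2 at 8.71 ± 1.92 TPM to Cdc26 at 197 ± 1.72 TPM. Of the other kinetochore genes 23 of 23 were expressed at a median of 27.7 TPM, from Cenpl at 8.39 ± 0.601 TPM to Zwint at 197 ± 8.34 TPM. The 4 genes that load Cenpa had a median of 49.4 TPM, with Mis18a highest at 89.3 ± 3.80 TPM. All 10 other checkpoint and cohesion genes were expressed, from Mad2l1bp at 11.6 ± 1.38 TPM to Trip13, which disassembles checkpoint complexes, at 72.8 ± 4.52 TPM.

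Condensin II shares Smc2 and Smc4 with condensin I, and its own 3 subunits were uneven. Ncaph2 stood at 81.9 ± 0.728 TPM, above Ncaph of condensin I. Ncapg2 was at 26.9 ± 1.03 TPM and Ncapd3 at 19.0 ± 0.156 TPM, below their counterparts Ncapg and Ncapd2 in both libraries. Among 17 other genes of entry and exit, Ube2s, the partner of Ube2c, was highest at 392 ± 5.76 TPM and the phosphatase gene Cdc14b lowest at 1.69 ± 0.0636 TPM. The cyclin A2 gene Ccna2 stood at 198 ± 18.6 TPM, between Ccnb1 and Ccnb2. Pkmyt1, the other kinase that restrains Cdk1, stood at 7.86 ± 0.856 TPM, close to Wee1 at 7.47 ± 0.226 TPM. The 5 cytokinesis genes ranged between 5.28 TPM for Cit and 104 TPM for Racgap1. The 6 genes of the MuvB complex and B-Myb had a median of 15.0 TPM, from Lin37 at 3.52 ± 0.643 TPM to Rbbp4 at 57.7 ± 1.58 TPM, with the B-Myb gene Mybl2 at 27.3 ± 1.47 TPM, above Foxm1 in both libraries.

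The relatives of the members that act in germ cells or other settings were mostly at or near 0. Of 12 such genes found, 2 reached 1 TPM, the Polo kinase genes Plk2 at 6.61 ± 0.0778 TPM and Plk3 at 6.65 ± 0.127 TPM. Both lay below Plk1 and Plk4. The other relatives Ccnb3, Ccna1, Plk5, Cdc20b, Sgo2b, Mos, Meikin and Rec8, had 0 counts in both libraries. For Ccnb3 and Ccna1 a count of 0 allows up to 0.0334 TPM and 0.107 TPM in replicate 1 (3 counts). Aurkc, the Aurora kinase of germ cells, had 0 counts in replicate 2 and 4 in replicate 1. Wee2, the oocyte relative of Wee1, had 1 count in replicate 2 and 2 in replicate 1.

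**Figure D5:**
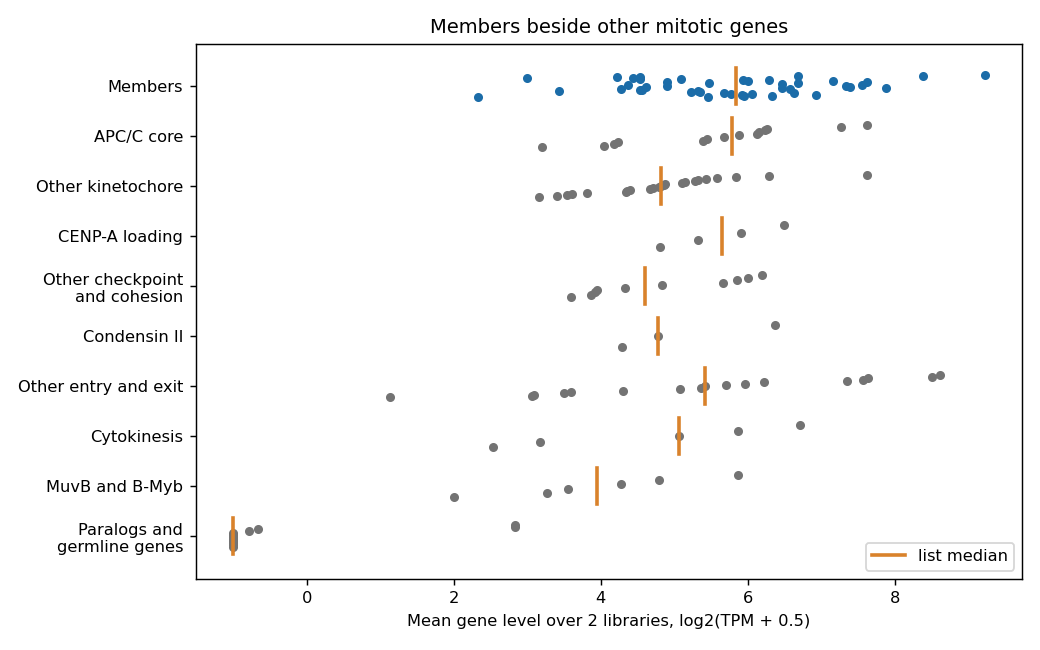
Mean level over 2 libraries as log2(TPM + 0.5) for the 44 members (top row) and for each list of other mitotic genes, 1 point a gene, with a bar at the list median. All lists but that of paralogs and germline genes lie above 0, and in that list only Plk2 and Plk3 do.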

How the data were processed

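RNA of CH12.LX was measured in 2 libraries of 1 group, numbered as biological replicates in the labels. The authors deposited gene and transcript tables on mm10, with annotation M4 of GENCODE plus spike-ins, per the text that accompanies the files. For the aligner, the quantification tool and the use of strand, the names and settings were not given in the sources used here. Expected counts, per the file headers, are estimated reads per feature that divide shared reads, not normalized. TPM and FPKM values, deposited by the authors, are scaled by length and library; FPKM served for 1 alternative. The isoform percent deposited by the authors gives how much of the gene's TPM each transcript holds. The deposited posterior SD, a score in counts, marked uncertain division of reads: at the gene level it was 0 in both libraries for 41 members and above 0 for 3. Deposited credibility bounds, a signal column, were not used.

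Symbols, transcript types and coordinates came from GENCODE M21 on GRCm38 by identifier without version. Transcripts absent from M21 had no type and were not counted as protein-coding, and Mad2l1-202 is 1370 nt long in the files but 7557 nt in M21. Promoters came from RefSeq on GRCm38.p6. The members and the lists of other genes were chosen with earlier results of these data known. Every member was named, by role, together with members past 1.5-fold or with the largest differences between replicates, members with a second transcript at 20% or a leading transcript that differs, and of each list its highest, lowest and family relatives of members. Mybl2, the promoters printed, Cenpa-202, Smc4-207 and the count ratios of condensin I were chosen after values were seen. A gene was expressed at 1 TPM in both libraries; differences used a pseudocount of 0.5 and a mean expected count of 20. No test between conditions exists, and values are mean ± SD over 2 libraries. The count-ratio procedure was tested on simulated data. Work was done in Python 3.11.15 with pandas 2.3.3, SciPy 1.17.1 and matplotlib 3.10.9. Alternative scalings used edgeR 4.0.16 and DESeq2 1.42.0 size factors in R 4.3.3, on rounded counts. No table of proteins was used here. Some items are not reported here.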

Additional observations from a re-analysis of the deposited data

How the results depend on the processing

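All 44 genes stayed expressed with posterior mean TPM, FPKM, a limit of 0.5 TPM, protein-coding transcripts or 1 library, with 43 at 5 TPM and 41 at 10 TPM. Their median of 57.0 TPM became 48.5 in FPKM, 74.9 when rescaled to nuclear protein-coding genes and 51.1 on protein-coding transcripts, and lay between 55.1 and 56.2 with 1 library left out. The count of 1 member past 1.5-fold became 0 with expected counts under TMM, median-of-ratios or ERCC scaling, with posterior mean TPM and at 2-fold, and 2 (Cenpf and Smc4) at the lowest fold limit tried; pseudocounts, filters and protein-coding transcripts left it at 1. ERCC scaling moved the median difference of all genes to 0.30 on the log2 scale. The ratio of Ccnb1 to Cdk1 reversed to 1.98 by count and 1.40 on protein-coding transcripts. That of Pttg1 to Espl1 fell to parity by count, at 0.998. Its direction turned between libraries, with counts of 2271 to 2595 in replicate 1 and 2626 to 2341 in replicate 2. The ratio of Smc4 to Smc2 was 0.985 ± 0.0695 on protein-coding transcripts, within its SD of parity, and 1.02 by count. The ratio of Ccnb1 to Ccnb2 moved to 5.30 by count and 2.96 on protein-coding transcripts, Cdc20 to Fzr1 to 3.88 and Nuf2 to Ndc80 to 2.55 by count. Counts are not per length, which is how these ratios differ; the cause of the other shifts was not tested. Of 23 ratios, 20 moved by more than their SD by count, 11 on protein-coding transcripts and 4 with posterior means; of 44 levels, 18 moved on protein-coding transcripts, 5 with posterior means and 43 when rescaled. Leaving out a library gave 1.75 to 1.89 for Smc4 to Smc2 and 6.43 to 7.60 for Cdc20 to Fzr1. No paired analysis was possible because there is 1 group. With 2 libraries the SDs are themselves imprecise, and reads in exon bases shared with a gene on the opposite strand, such as 911 of Prc1 with Rccd1, could belong to either if counting did not use strand.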

Other observations

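Some members overlap transcribed neighbours, mostly on the opposite strand. Prc1 shares 911 exon bases with Rccd1, which held 329 and 345 counts, and Ncapg shares 944 with Lcorl, which held 401 and 476. Cenpk shares 233 with Ppwd1, at 747 and 769 counts, and Cdc20 shares 53 with Elovl1, at 1107 and 932. Ube2c shares 592 with the muscle troponin gene Tnnc2, which had 0 counts in both libraries. On the same strand, Ncapd2 shares 237 exon bases with the small RNA gene Scarna10, at 25 and 17 counts, where strand cannot divide the reads. How far these overlaps enter the levels of the members was not tested.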
